A study of Mus musculus with 60 samples.

Results

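A module of 45 genes for postsynaptic scaffolds, calcium-dependent kinases and phosphatases, and synaptic adhesion proteins was followed in the RNA-Seq data of dorsal and ventral dentate gyrus (DG). The members were chosen by name, from a fixed list of gene symbols, with earlier results of these data known. All 45 were found among the 46480 genes of the count tables. The samples were whole tissue punched from the dorsal or ventral DG of male C57BL6J mice aged 80 days. The mice were weaned on day 22 into standard housing (SH, 3 mice in a cage) or an enriched environment (EE, 12 mice in a larger cage with running wheels and toys that were changed every week) for 8 weeks. Region and housing give 4 groups, with 5 samples in each, every one of tissue pooled from several mice. The dorsal and ventral sample of a replicate number were taken to come from the same mice. SH replicate 3 was left out in both regions. That leaves 4 SH and 5 EE pools.

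At an excitatory synapse the postsynaptic density holds glutamate receptors in a lattice of scaffold proteins, in which Dlg (MAGUK) proteins bind receptors and adhesion molecules, Dlgap proteins connect Dlg to Shank, and Shank binds Homer. Calcium that enters through these receptors binds calmodulin, which activates both the CaM kinases and the phosphatase calcineurin. Adhesion proteins join the presynaptic and postsynaptic membranes. Neurexins and receptor tyrosine phosphatases act mainly on the presynaptic side, with neuroligins, Lrrtm and Slitrk proteins among their postsynaptic partners. In the DG, granule cells receive their main excitatory input from the entorhinal cortex and send mossy fibers to area CA3, and the dorsal and ventral poles differ in connections and function.

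Counts on genes totaled 22919364 to 28301861 in the 18 samples. *Xist*, a transcript of female cells, was at 34.3 and 11.9 CPM (counts scaled by library size) in the dorsal and ventral samples of SH replicate 3 and at most 0.652 CPM in the others. The granule cell markers *Prox1*, *C1ql2*, *Dsp*, *Dock10* and *Calb1* were all detected in both regions, the lowest (*Dsp*) at a mean of 135 CPM. Expressed genes (over 1 TPM, a level scaled for transcript length and library total, in 3 or more samples) numbered 12201, and all 45 members were among them. The member with the fewest reads, *Cntn4*, had at least 279 counts in each sample.

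Within the module, levels per transcript length spanned 1.84 to 260.4 TPM (mean of the 4 group means). The highest 5 were genes of calcium signaling. *Ppp3ca*, the catalytic subunit A alpha of calcineurin, was at 260.4 TPM, *Camk2a* (the alpha subunit of CaMKII) at 251, *Ppp3r1* (the calcineurin regulatory subunit) at 169, *Camk2b* (CaMKII beta) at 166, and *Nrgn* (neurogranin, which binds calmodulin when calcium is low) at 151. The Dlg protein PSD-95, encoded by *Dlg4*, followed at 75.7 TPM and was the highest scaffold. Other calcium-dependent kinases were far lower, with *Camk2g* at 24.9 TPM, *Camk2d* at 5.28 and *Camk4* at 4.88. Adhesion genes were lower, from *Icam5* (an adhesion molecule of dendrites) at 54.7 TPM down to the contactins *Cntn5* and *Cntn4* at 1.88 and 1.84 TPM. Most neighbors in this order could not be separated. *Ppp3ca* was above *Camk2a* in 11 of 18 samples and *Dlg4* above the CaMKII inhibitor *Camk2n1* in 9. Of the 44 pairs of neighbors, 5 kept their order in every sample (*Camk2a* above *Ppp3r1*, *Nrgn* above *Dlg4*, *Lrfn5* above *Slitrk3*, *Flrt3* above *Slitrk1*, and *Lrrtm3* above *Cntn5*). The highest gene of a sample, the small RNA gene *Rn7s1* or *Rn7s2*, took 20.6 to 30.4% of its TPM, so that TPM was used for the order of genes within samples and CPM for comparisons between groups.

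**Figure D1:**
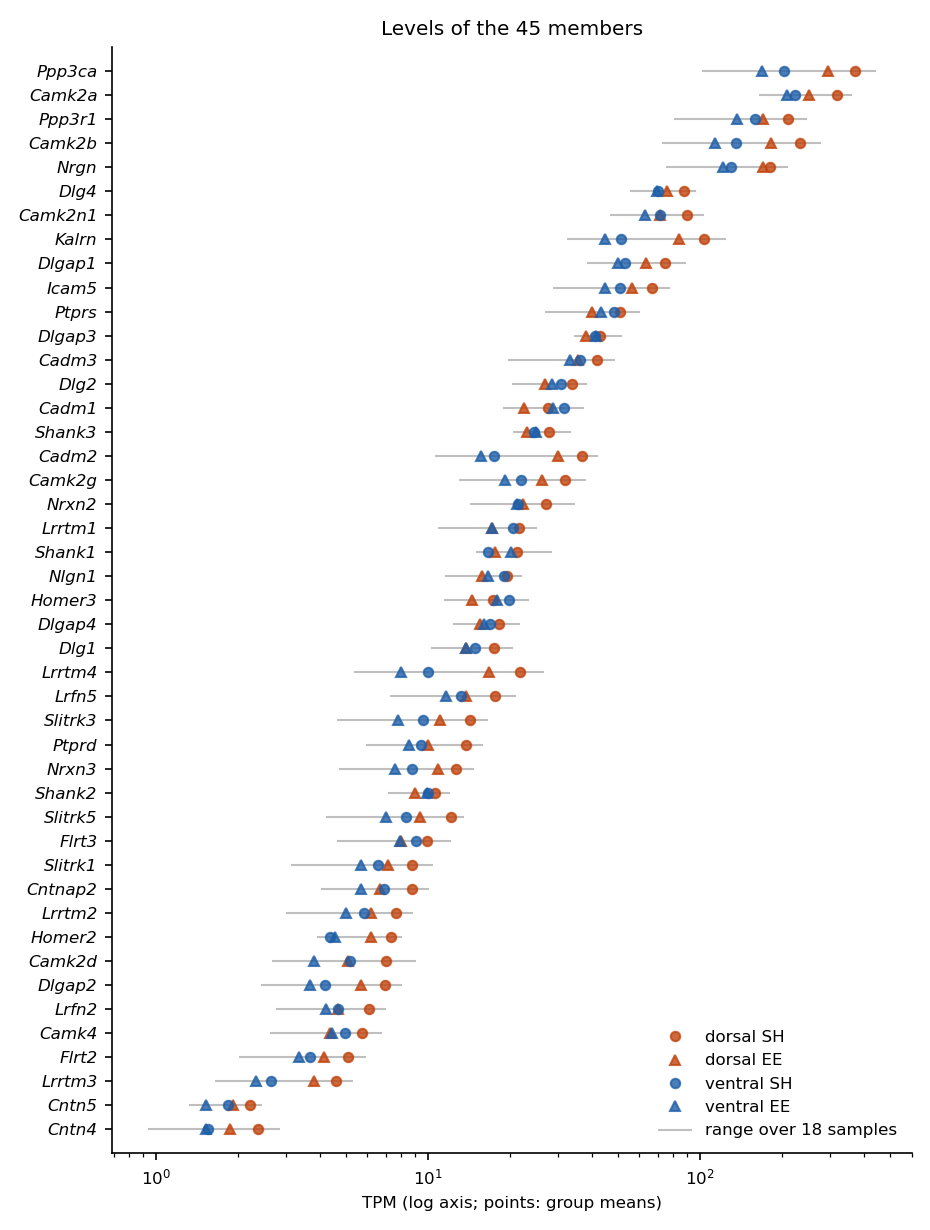
TPM (log axis) of the 45 members. Points are the means of the 4 groups (dorsal in red, ventral in blue, SH as circles, EE as triangles) and gray lines the range over 18 samples. *Ppp3ca*, *Camk2a*, *Ppp3r1* and *Camk2b* are at the top, up to 260.4 TPM as mean of the groups, and *Cntn4* is lowest at 1.84 TPM.

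Dorsal and ventral DG were compared to ask how the regions differ in synaptic gene expression. Of the 45 members, 16 (35.6%) differed between the regions at FDR under 0.05 with a fold change over 20%, compared with 28.3% of the 12201 expressed genes. These calls were mostly toward dorsal. 14 members (31.1%) were higher in dorsal DG, against 13.8% of expressed genes, and 2 members (4.44%) were higher in ventral DG, against 14.5%. Among the 14 were *Lrrtm4*, *Cadm2*, *Kalrn*, *Ppp3ca* and *Camk2b*, and the 2 ventral genes were *Homer3* and *Cadm1*. The median log2 fold change, dorsal over ventral, was 0.16 for the members and -0.0017 for all expressed genes. Without the fold change limit, 24 members were higher in dorsal DG and 11 in ventral DG (53.3% and 24.4%, against 31.6% and 31.5% of expressed genes), and 10 did not pass the test. With the pool of mice as a block these numbers were 25, 13 and 7, since *Camk2n1* (FDR = 0.0409, toward dorsal), *Camk4* (0.0191) and *Flrt3* (0.0153, both toward ventral) then passed, each within the 20% limit. With this block, 4127 of the 12201 expressed genes passed toward dorsal and 4130 toward ventral. All 9 dorsal samples were above all 9 ventral samples for 11 members (11.8% of expressed genes), and the reverse held for 3 members (10.7%). In whole tissue, fewer cells of a type and less RNA per cell cannot be told apart.

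**Figure D2:**
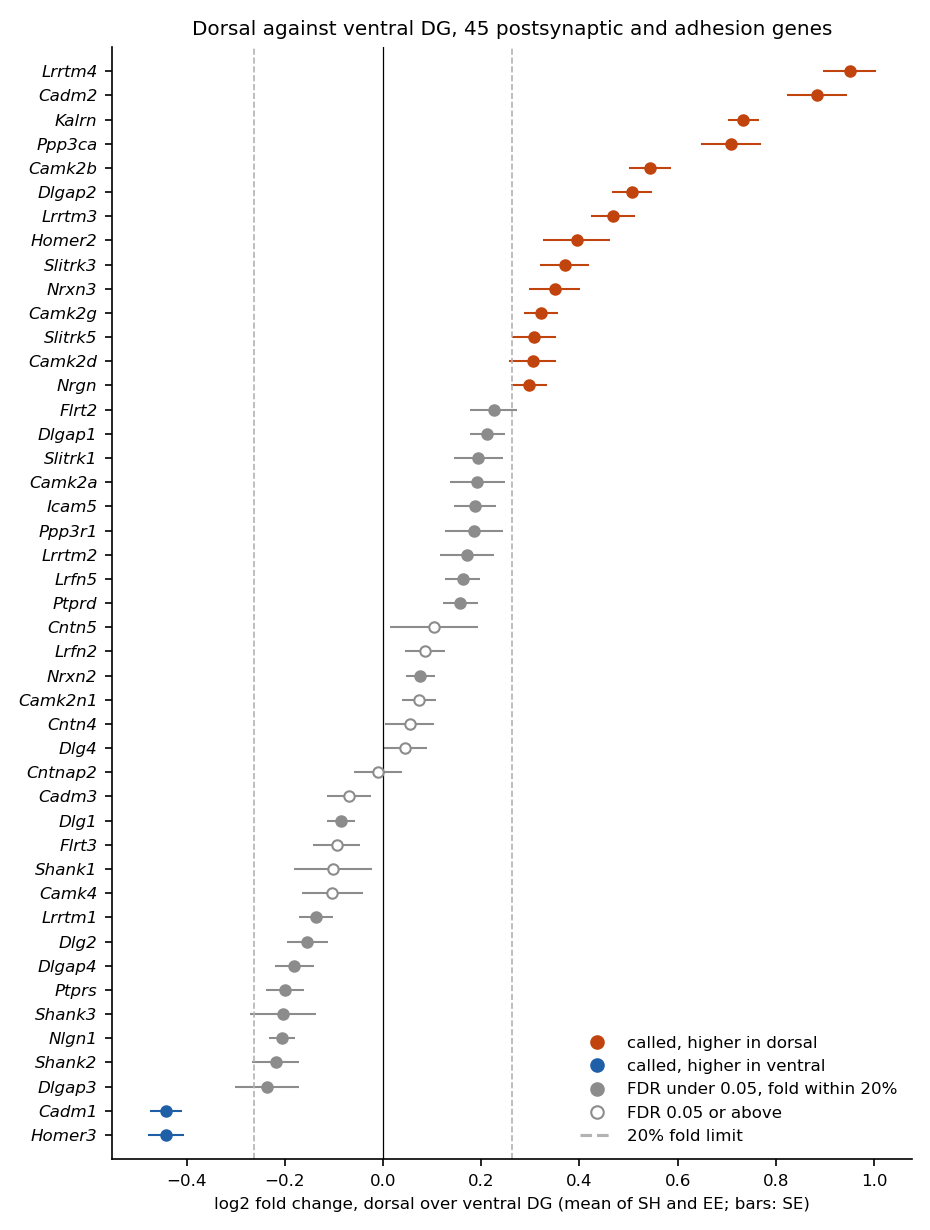
Log2 fold change of dorsal over ventral DG for the 45 members, as the mean of the SH and EE differences, with standard errors. Filled red and blue points are the 14 and 2 called members, filled gray points passed FDR under 0.05 within the 20% limit, and open points did not pass. *Lrrtm4* (0.95) and *Cadm2* (0.88) are farthest to the right, and *Homer3* and *Cadm1* (both -0.44) farthest to the left.

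The leucine-rich repeat adhesion genes held the largest difference. *Lrrtm4* encodes a postsynaptic organizer that binds neurexins and heparan sulfate proteoglycans and is known from granule cell dendrites. It was at 125, 116, 123 and 118 CPM in dorsal SH, 106, 104, 118, 121 and 115 in dorsal EE, 66.9, 58.0, 70.7 and 61.0 in ventral SH, and 53.5, 56.1, 49.1, 69.0 and 56.3 in ventral EE. Every dorsal sample was above every ventral sample. Its log2 fold change was 0.95 ± 0.053 (SE; FDR = 1.06e-12), which is 1.93-fold. *Lrrtm3*, another neurexin-binding member of the family, was at 27.3, 27.4, 31.5 and 28.9 CPM in dorsal SH and 24.9, 24.2, 27.9, 25.7 and 25.7 in dorsal EE. It was at 19.6, 18.6, 22.98 and 19.4 CPM in ventral SH and 19.0, 20.01, 17.7, 19.5 and 19.5 in ventral EE. The regions did not overlap for this gene either (0.47 ± 0.045, FDR = 8.88e-09). *Lrrtm1* lay the other way, with a log2 fold change of -0.14 ± 0.035 (FDR = 0.00190), within the 20% limit, and *Lrrtm2* was at 0.17 ± 0.054 (FDR = 0.00983), also within it. The Slitrk genes encode postsynaptic partners of receptor tyrosine phosphatases, and Slitrk3 is known from inhibitory synapses. *Slitrk3* (0.37 ± 0.049, FDR = 1.30e-06) and *Slitrk5* (0.31 ± 0.044, FDR = 3.29e-06) were higher in dorsal DG in all 9 pools, although the ranges of the regions overlapped. *Slitrk1* (0.19), *Flrt2* (0.23; a ligand of latrophilins) and *Lrfn5* (0.16; a SALM adhesion protein) passed FDR under 0.05 toward dorsal within the 20% limit. *Flrt3* (-0.095) and *Lrfn2* (0.085) did not pass.

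The SynCAM genes, which encode adhesion proteins with immunoglobulin domains, were split between the regions. *Cadm2* was at 519.6, 465, 519 and 504 CPM in dorsal SH and 512, 357, 502, 493 and 507 in dorsal EE. In ventral DG it was at 244, 262, 299.6 and 283 CPM (SH) and 244, 237, 254, 275 and 274 (EE). Dorsal EE replicate 2, at 357 CPM, was well below the other dorsal samples and still above the ventral ones. The log2 fold change was 0.88 ± 0.06 (FDR = 3.18e-11). *Cadm1* had the opposite direction. It was at 167, 162, 163 and 168 CPM in dorsal SH and 156, 145, 165, 158 and 154 in dorsal EE, against 207, 232, 215 and 226 in ventral SH and 216, 208, 213, 211 and 229 in ventral EE. Every ventral sample was above every dorsal one (-0.44 ± 0.033, FDR = 1.33e-10). *Cadm3* did not pass (-0.069 ± 0.045, FDR = 0.198). Its exons share 4.98% of their bases with *Ackr1* on the same strand.

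**Figure D3:**
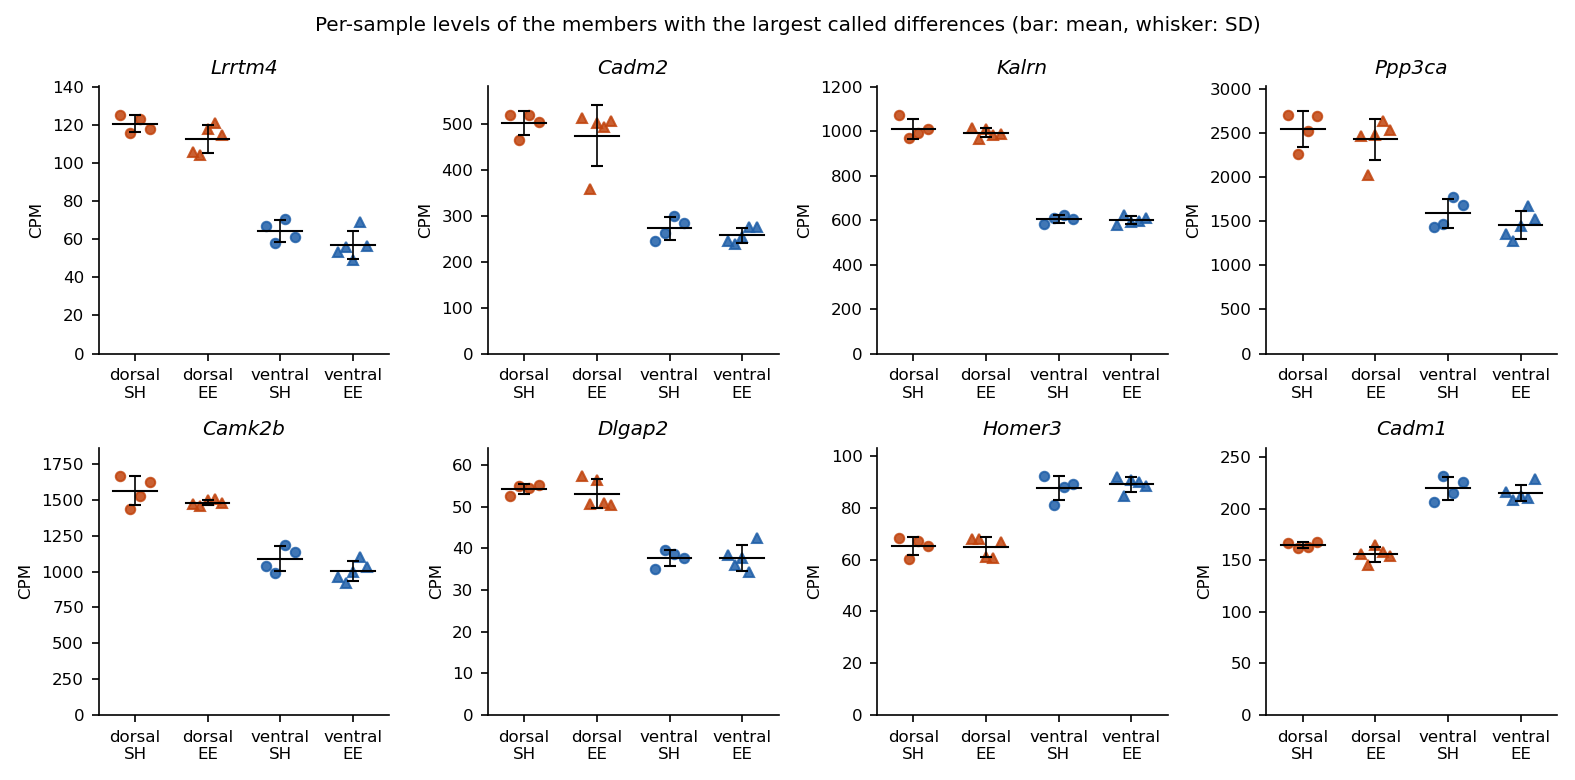
CPM of the 8 members with the largest called region differences, for each sample of the 4 groups (dorsal red, ventral blue, SH circles, EE triangles). Horizontal bars are group means and whiskers SD (n = 4 for SH, n = 5 for EE). Dorsal and ventral points do not overlap for any of the 8, and *Homer3* and *Cadm1* are the panels in which ventral is higher.

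*Kalrn* encodes kalirin, a protein that acts on the actin of dendritic spines. It was at 1075, 968, 994 and 1011 CPM in dorsal SH, 1014, 966, 1013, 985 and 988 in dorsal EE, 583, 609, 626 and 607 in ventral SH, and 576, 623, 591, 596 and 611 in ventral EE. The groups of a region were close together, and the regions were far apart relative to that spread. The log2 fold change was 0.73 ± 0.032 (FDR = 1.33e-14), the smallest FDR of the 45 members.

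Among calcium-dependent enzymes and their regulators, 5 of 9 members were called, each higher in dorsal DG, against 13.8% of expressed genes called toward dorsal. *Ppp3ca* was at 2704, 2258, 2519 and 2686 CPM in dorsal SH and 2457, 2026, 2477, 2636 and 2532 in dorsal EE. In ventral DG its values were 1434, 1469, 1767 and 1685 CPM for SH and 1349, 1274, 1449, 1675 and 1523 for EE. The regions did not overlap (0.71 ± 0.061, FDR = 1.55e-09). *Ppp3r1*, its regulatory partner, had a smaller difference (0.19 ± 0.059, FDR = 0.0102) with overlapping ranges, and 14.3% of its exon bases are shared with *Wdr92* on the same strand. For *Camk2b*, whose product anchors CaMKII to actin, the values were 1664, 1438, 1528 and 1622 CPM in dorsal SH and 1473, 1454, 1495, 1503 and 1477 in dorsal EE. They were 1040.1, 993, 1185 and 1133 CPM in ventral SH and 959, 918, 996, 1101 and 1029 in ventral EE. All dorsal samples were again higher (0.54 ± 0.043, FDR = 3.79e-10). *Camk2g* (0.32 ± 0.034) and *Camk2d* (0.30 ± 0.048), the other CaMKII subunits outside the alpha form, also differed without overlap (FDR = 3.78e-08 and 1.18e-05). *Camk2a* had a log2 fold change of 0.19 ± 0.056 (FDR = 0.00534), within the 20% limit, and was higher in dorsal DG in 7 of 9 pools. *Nrgn* was at 464, 449, 456 and 478 CPM in dorsal SH and 488, 511, 529, 553 and 533 in dorsal EE. It was at 406, 372, 407 and 390.1 CPM in ventral SH and 402, 366, 427, 418 and 415 in ventral EE. Its regions did not overlap (0.30 ± 0.036, FDR = 3.50e-07). Neither *Camk2n1* (0.074 ± 0.035, FDR = 0.0788) nor *Camk4*, a kinase that phosphorylates the transcription factor CREB in the nucleus (-0.10 ± 0.062, FDR = 0.160), passed.

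Scaffold genes were divided. Of the 12 Dlg, Dlgap, Shank and Homer genes, 2 were called toward dorsal (*Dlgap2* and *Homer2*) and 1 toward ventral (*Homer3*). In all, 7 passed FDR under 0.05 toward ventral. Of expressed genes, 13.8% were called toward dorsal and 14.5% toward ventral, and 31.5% passed FDR under 0.05 toward ventral. *Dlgap2* was at 52.6, 54.9, 54.5 and 55.2 CPM in dorsal SH and 57.3, 50.6, 56.4, 50.8 and 50.5 in dorsal EE, against 35.2, 39.7, 38.6 and 37.6 in ventral SH and 38.4, 36.0, 37.7, 34.3 and 42.6 in ventral EE. The dorsal values were all higher (0.51 ± 0.041, FDR = 4.90e-10). *Dlgap1* was at 0.21 ± 0.035 (FDR = 2.17e-05), while *Dlgap3* (-0.24 ± 0.066, FDR = 0.00389) and *Dlgap4* (-0.18 ± 0.04, FDR = 5.01e-04) lay toward ventral, all within the 20% limit. The Homer genes, whose products bind metabotropic glutamate receptors as well as Shank, went in opposite directions. *Homer3* was at 68.3, 60.3, 67.1 and 65.3 CPM in dorsal SH and 68.0, 68.1, 61.1, 60.7 and 66.8 in dorsal EE. It was at 92.2, 81.0, 88.2 and 89.2 CPM in ventral SH and 92.0, 84.6, 90.8, 90.2 and 88.3 in ventral EE, without overlap (-0.44 ± 0.036, FDR = 5.32e-10). *Homer2* ranged from 131 to 178 CPM in dorsal and 99.5 to 152 CPM in ventral samples and was higher in dorsal DG in 8 of 9 pools (0.39 ± 0.069, FDR = 4.02e-05). *Shank2* (-0.22 ± 0.048, FDR = 4.95e-04) and *Shank3* (-0.20 ± 0.067, FDR = 0.0127) lay toward ventral within the limit, and *Shank1* did not pass (-0.10 ± 0.079, FDR = 0.276). Of the Dlg genes, *Dlg2* (PSD-93; -0.15 ± 0.041, FDR = 0.00274) and *Dlg1* (SAP97; -0.086 ± 0.029, FDR = 0.0152) passed toward ventral within the limit. *Dlg4* did not (0.046 ± 0.044, FDR = 0.388).

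Neurexins and their partner neuroligin 1 differed in direction. *Nrxn3* was higher in dorsal DG without overlap (132 to 166 CPM against 99.1 to 126, log2 fold change 0.35 ± 0.052, FDR = 5.11e-06). *Nlgn1*, the neuroligin of excitatory synapses, was higher in ventral DG without overlap (174 to 188 CPM against 148 to 166 in dorsal samples), but its change stayed within the 20% limit (-0.21 ± 0.026, FDR = 6.88e-07). *Nrxn2* passed narrowly toward dorsal (0.076 ± 0.03, FDR = 0.0337). The receptor phosphatases *Ptprd* (0.16 ± 0.035, FDR = 6.16e-04) and *Ptprs* (-0.20 ± 0.039, FDR = 1.63e-04) had opposite signs, each within the limit. *Icam5* passed toward dorsal within the limit (0.19 ± 0.042, FDR = 6.51e-04). The contactins *Cntn4* (0.054 ± 0.05) and *Cntn5* (0.10 ± 0.089), and *Cntnap2*, a neurexin-like axonal protein (-0.0099 ± 0.05), did not pass, with FDR from 0.329 to 0.881.

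The balance of related members was described by ratios of their TPM. The TPM ratio of *Cadm2* to *Cadm1* was 1.25 to 1.42 in the 9 dorsal and 0.494 to 0.598 in the 9 ventral samples, so that *Cadm2* was the more abundant of the pair in each dorsal sample and *Cadm1* in each ventral sample. The ratio of *Lrrtm4* to *Lrrtm1* was 0.901 to 1.11 in dorsal and 0.415 to 0.530 in ventral samples. *Homer2* was below *Homer3* throughout, at a ratio of 0.347 to 0.519 in dorsal and 0.203 to 0.343 in ventral samples. For *Ppp3ca* to *Ppp3r1* the ratio was 1.63 to 1.96 in dorsal and 1.19 to 1.34 in ventral samples. *Camk2b* to *Camk2a* was the one of these ratios whose ranges met (0.624 to 0.808 in dorsal and 0.443 to 0.696 in ventral samples). *Dlgap2* was below *Dlgap3* in all samples (0.125 to 0.184 and 0.0672 to 0.119). These 6 pairs were chosen after their values were seen, and the ratios are a description.

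The promoters of 2 of these pairs are printed, and their members lie in opposite directions between the regions, *Lrrtm1* within the 20% limit. *Cadm2* and *Cadm1*, and *Dlgap2* and *Dlgap3*, also lie in opposite directions and are not printed. Each window runs from 250 bases before to 50 bases after the most upstream start that RefSeq lists (build GRCm38.p6), 5′ to 3′ on the strand of the gene. *Lrrtm4* is at chr6:80018627-80018926, plus strand; *Lrrtm1* at chr6:77242227-77242526, plus strand; *Homer2* at chr7:81706876-81707175, minus strand; and *Homer3* at chr8:70282749-70283048, plus strand. Capitals mark the GC box GGGCGG, the E box CAGCTG and the TATA sequence TATAAA, searched on both strands; matches of the GC box may overlap.
Lrrtm4: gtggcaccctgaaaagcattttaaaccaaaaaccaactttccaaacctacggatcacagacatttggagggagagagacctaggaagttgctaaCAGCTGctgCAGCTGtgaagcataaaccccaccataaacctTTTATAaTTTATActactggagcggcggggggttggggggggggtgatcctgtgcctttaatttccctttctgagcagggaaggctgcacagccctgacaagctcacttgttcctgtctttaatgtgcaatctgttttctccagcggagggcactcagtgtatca
Lrrtm1: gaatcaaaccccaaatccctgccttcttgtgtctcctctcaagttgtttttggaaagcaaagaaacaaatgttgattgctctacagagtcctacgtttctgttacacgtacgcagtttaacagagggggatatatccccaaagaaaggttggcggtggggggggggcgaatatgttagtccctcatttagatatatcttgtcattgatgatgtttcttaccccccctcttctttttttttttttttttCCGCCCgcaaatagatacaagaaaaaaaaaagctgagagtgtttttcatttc
Homer2: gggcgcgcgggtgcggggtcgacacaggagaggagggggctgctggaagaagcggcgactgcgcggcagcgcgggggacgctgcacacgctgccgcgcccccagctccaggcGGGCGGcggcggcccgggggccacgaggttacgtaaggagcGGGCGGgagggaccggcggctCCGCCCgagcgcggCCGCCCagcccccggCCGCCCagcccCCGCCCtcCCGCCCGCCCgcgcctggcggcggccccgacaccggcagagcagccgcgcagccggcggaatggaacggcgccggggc
Homer3: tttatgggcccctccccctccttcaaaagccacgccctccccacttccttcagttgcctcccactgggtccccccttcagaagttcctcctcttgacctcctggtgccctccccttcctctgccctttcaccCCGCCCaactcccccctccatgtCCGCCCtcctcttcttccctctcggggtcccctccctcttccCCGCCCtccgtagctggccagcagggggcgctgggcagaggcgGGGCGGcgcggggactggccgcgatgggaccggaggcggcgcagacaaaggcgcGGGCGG
The *Lrrtm4* window holds 2 E boxes and 2 TATA sequences and no GC box, and has 4 CpG sites. The *Lrrtm1* window holds 1 GC box and 7 CpG sites, the median of all 32851 listed windows. The 8 GC boxes and 49 CpG sites of the *Homer2* window compare with 5 and 19 in the *Homer3* window. The GC box occurs in 35.7% of all listed windows, the E box in 16.3% and the TATA sequence in 13.6%. Windows were listed for 32 of the 45 members (49 windows), of which 40.8%, 20.4% and 8.16% hold these motifs. The matches are a description of the sequence, and no factor was measured at them.

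Markers of several cell types moved with region, and their part in the differences of the members was not tested. The summed level of the 5 granule cell markers was 1023 to 1235 CPM in dorsal and 516 to 746 CPM in ventral samples, and 4 of the 5 were called toward dorsal. The 5 markers of maturing neurons summed to 106 to 129 CPM against 72.9 to 92.7, with 4 called toward dorsal. Thalamus and habenula markers were at 91.4 to 139.9 CPM in dorsal and 30.7 to 43.7 in ventral samples (3 of 5 called toward dorsal). Choroid plexus markers were at 22.4 to 207 and 385 to 1406 CPM (5 of 5 called toward ventral), and the 3 mossy cell markers at 15.2 to 30.7 and 61.2 to 105 CPM, with 1 called in each direction. The summed levels of CA pyramidal cell, interneuron, astrocyte, oligodendrocyte, oligodendrocyte precursor, microglia and endothelium markers overlapped between the regions, although 3 of 7 CA pyramidal cell markers were called toward dorsal and 1 toward ventral, 3 of 7 interneuron and 2 of 6 astrocyte markers toward ventral, and 1 of 6 microglia markers toward ventral. The lowest marker means were 0.525 CPM for *Csf2rb2* (mossy cells) and 0.822 CPM for *Gpr151* (habenula).

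Other genes of the same pathways were taken from a list of 88 further scaffold, adhesion and calcium signaling genes, of which 84 were expressed. Of these, 20 (23.8%) were called toward dorsal and 15 (17.9%) toward ventral DG, against 13.8% and 14.5% of expressed genes. The median log2 fold change of the 84 was 0.082, against -0.0017 for all expressed genes. The 4 largest toward dorsal were *Tiam1* (1.08 ± 0.048), an exchange factor for Rac, *Cntnap5b* (0.96 ± 0.038) and *Cntnap5a* (0.82 ± 0.052), relatives of *Cntnap2*, and *Iqsec2* (0.55 ± 0.051), an exchange factor for Arf GTPases in the postsynaptic density. The 4 largest toward ventral were the adhesion gene *Tenm4* (-1.30 ± 0.054), the CaMKII inhibitor *Camk2n2* (-1.06 ± 0.064), *Cbln4* (-0.78 ± 0.10), a secreted partner of neurexins, and *Begain* (-0.52 ± 0.052), which binds PSD-95.

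Region differences were also counted within each housing condition. In SH alone 14 members were called toward dorsal and 2 toward ventral (14.2% and 13.9% of expressed genes), and in EE alone 14 and 6 (13.7% and 14.7%). Without the fold change limit, 19 members passed toward dorsal and 5 toward ventral in SH, and 22 and 11 in EE. Of the 12201 expressed genes, 2885 passed toward dorsal and 2794 toward ventral in SH, and 3158 and 3101 in EE. SH has fewer pools than EE, so the counts of SH and EE cannot be compared directly. The 6 ventral calls in EE were *Homer3*, *Cadm1*, *Dlgap3*, *Shank1*, *Shank2* and *Shank3*. The Shank genes were at 0.11, -0.14 and -0.12 in SH (*Shank1* to *Shank3*) and at -0.32, -0.29 and -0.29 in EE on the log2 scale. *Nrgn* was within the 20% limit in SH (0.23) and past it in EE (0.37), and *Camk2a* the reverse (0.28 and 0.11). None of these differences between housing conditions passed the interaction test below FDR 0.05.

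EE was compared with SH within each region to ask whether housing changed the same genes. In dorsal DG, 0 of the 45 members were called by edgeR (FDR under 0.05, fold change of at least 20%), where 0.634% of the 17040 tested genes were. At an unadjusted p under 0.05 there were 2 members (8.81% of tested genes), and with DESeq2 and the likelihood ratio test no member was called either. In ventral DG, 0 of 45 were called by the quasi-likelihood test (0.241% of tested genes), 9 had an unadjusted p under 0.05 (7.58%), and DESeq2 and the likelihood ratio test each called 1, *Shank1*. With the replicate number as a block, 0 members were called or passed FDR under 0.05 in either region. At an unadjusted p under 0.05 there were 6 and 14 members in dorsal and ventral DG (12.3% and 10.4% of tested genes). Calls over all genes went from 108 to 172 and from 41 to 87. With this block and the EE effect averaged over the regions, *Dlgap3* (0.14, FDR = 0.0342 by edgeR) and *Slitrk5* (-0.12, FDR = 0.0369) passed FDR under 0.05. Both were within the 20% limit, and 544 of the 17040 tested genes passed. The log2 fold changes of EE over SH ranged from -0.16 to 0.18 among members in dorsal DG (median -0.045) and from -0.18 to 0.43 in ventral DG (median -0.0089). Of the 88 other pathway genes, 0 were called in either region, with 9 and 7 at an unadjusted p under 0.05.

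**Figure D4:**
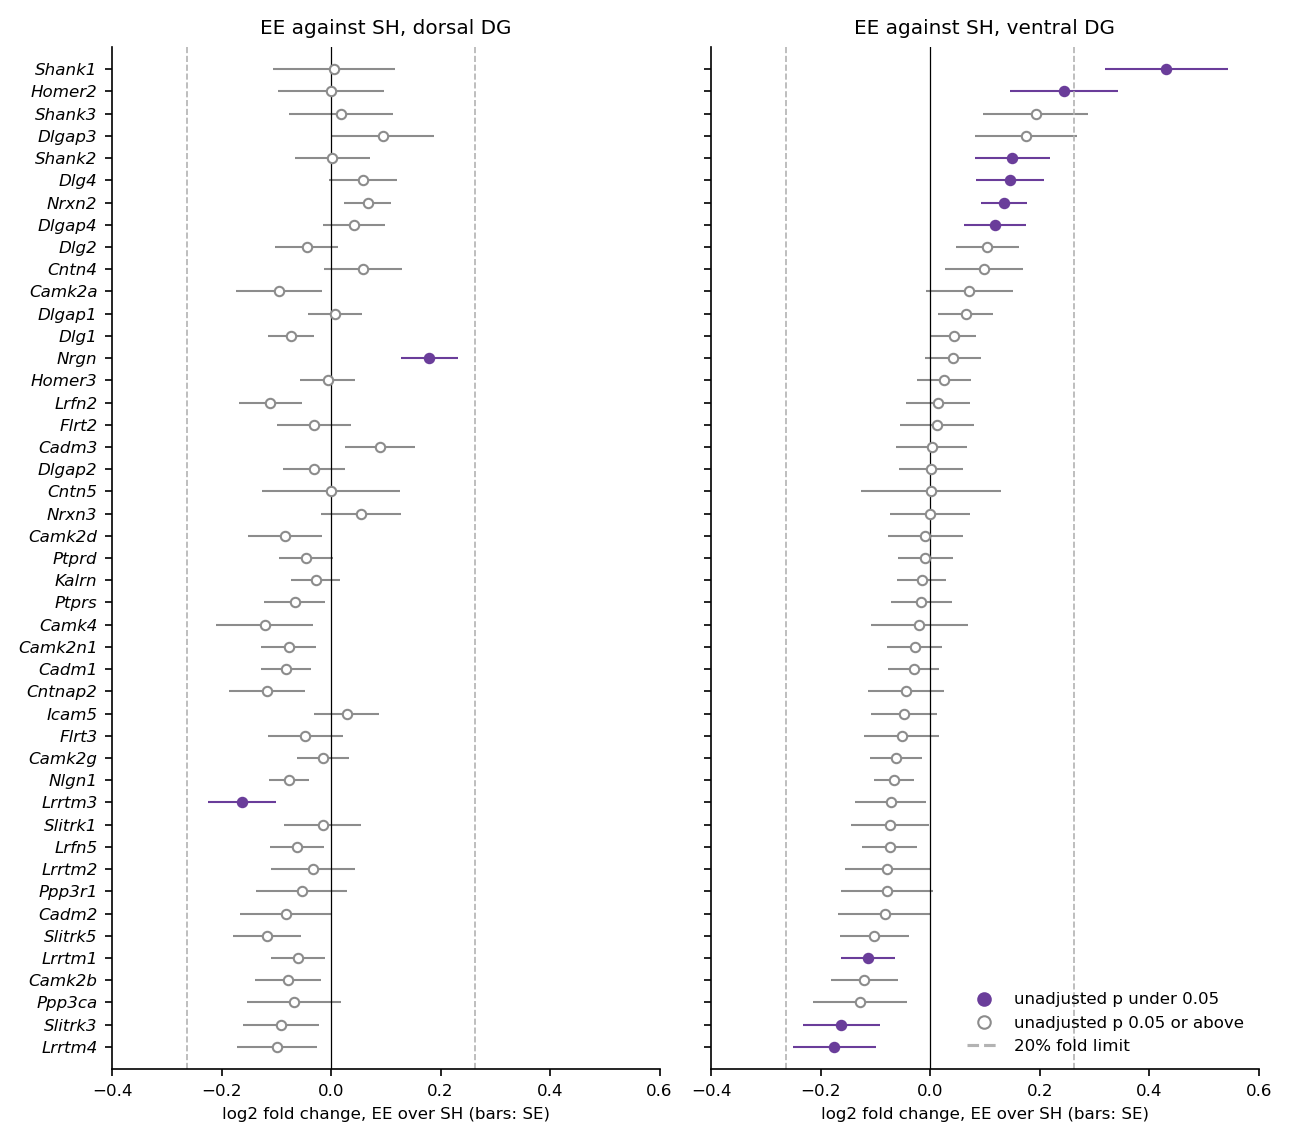
Log2 fold change of EE over SH for the 45 members in dorsal (left) and ventral (right) DG, with standard errors, ordered by the ventral value. Filled points have an unadjusted p under 0.05 (2 members in dorsal and 9 in ventral DG) and dashed lines mark the 20% fold limit. *Shank1* in ventral DG (0.43) is the one point outside the limit.

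The member with the smallest p in dorsal DG was *Nrgn*, whose values are given above. The 5 EE samples, at 488 to 553 CPM, were all above the 4 SH samples, at 449 to 478 CPM, for a log2 fold change of 0.18 ± 0.051 (FDR = 0.142 by edgeR). DESeq2 gave an adjusted p of 0.0232 for it, with a change within the 20% limit, and over the alternatives tried its adjusted p ranged from 0.0232 to 0.338. In ventral DG the *Nrgn* samples overlapped (0.042 ± 0.051). *Lrrtm3* had the next smallest p in dorsal DG, with -0.16 ± 0.062 (FDR = 0.381 by edgeR), and its EE samples overlapped those of SH.

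*Shank1* had the smallest p in ventral DG. It was at 239, 264, 232 and 217 CPM in ventral SH and 319.9, 349.8, 326, 228 and 381 in ventral EE. EE replicate 4, at 228 CPM, lay within the SH range and the other EE samples lay above it. The log2 fold change was 0.43 ± 0.11 (FDR = 0.157 by edgeR). Its adjusted p ranged from 0.00514 to 0.513 over the alternatives. It was 0.0347 with DESeq2, 0.0354 with the likelihood ratio test, 0.00514 without the filter on low counts, and 0.00849 without EE replicate 4 (log2 fold change 0.53), and it was at or above 0.0552 in the rest. SH replicate 3, which was left out, was at 296 CPM in ventral DG, above the other SH samples. In dorsal DG *Shank1* was at 242, 277, 268 and 242 CPM (SH) and 296, 282, 268, 239 and 205 (EE), with the EE values on both sides of those of SH (0.0047 ± 0.11). *Nrxn2* was next in ventral DG. It was at 139.9, 150.2, 140.3 and 148 CPM in ventral SH and 153, 159.5, 156, 158 and 167 in ventral EE, with each EE sample above each SH sample (0.14 ± 0.042, FDR = 0.304 by edgeR). In dorsal DG it was at 164, 150.01, 156 and 154 CPM (SH) and 163, 166, 166, 165 and 157 (EE), which overlapped (0.067 ± 0.042).

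The other 7 members with an unadjusted p under 0.05 in ventral DG were *Homer2* (0.24), *Shank2* (0.15), *Dlg4* (0.15) and *Dlgap4* (0.12) on the side of EE, and *Lrrtm1* (-0.11), *Slitrk3* (-0.16) and *Lrrtm4* (-0.18) on the side of SH, given with their log2 fold changes. Their FDR by edgeR was 0.532 to 0.646. With group means taken out, *Shank2* followed *Homer2* (r = 0.909) and *Dlgap4* (0.896) over the 18 samples. *Dlg4* went opposite to *Lrrtm1* (-0.865), so these members are not independent in the count. The number of members with an unadjusted p under 0.05 in ventral DG moved with the pools used. It was 2 without SH replicate 4 (5.48% of tested genes), 3 without SH replicate 5 (6.98%) or EE replicate 2 (7.33%), and 4 without EE replicate 1 (6.51%) or EE replicate 3 (5.91%). It was 8 without SH replicate 1 (7.15%), 10 without EE replicate 5 (8.23%), 11 without SH replicate 2 (7.59%) and 15 without EE replicate 4 (10.49%). Of the cell type markers, 1 was called by EE (a mossy cell marker in dorsal DG) and the summed levels of every marker list overlapped between SH and EE in ventral DG. Granule cell markers summed to 641 to 733 CPM in ventral SH and 516 to 746 in ventral EE.

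**Figure D5:**
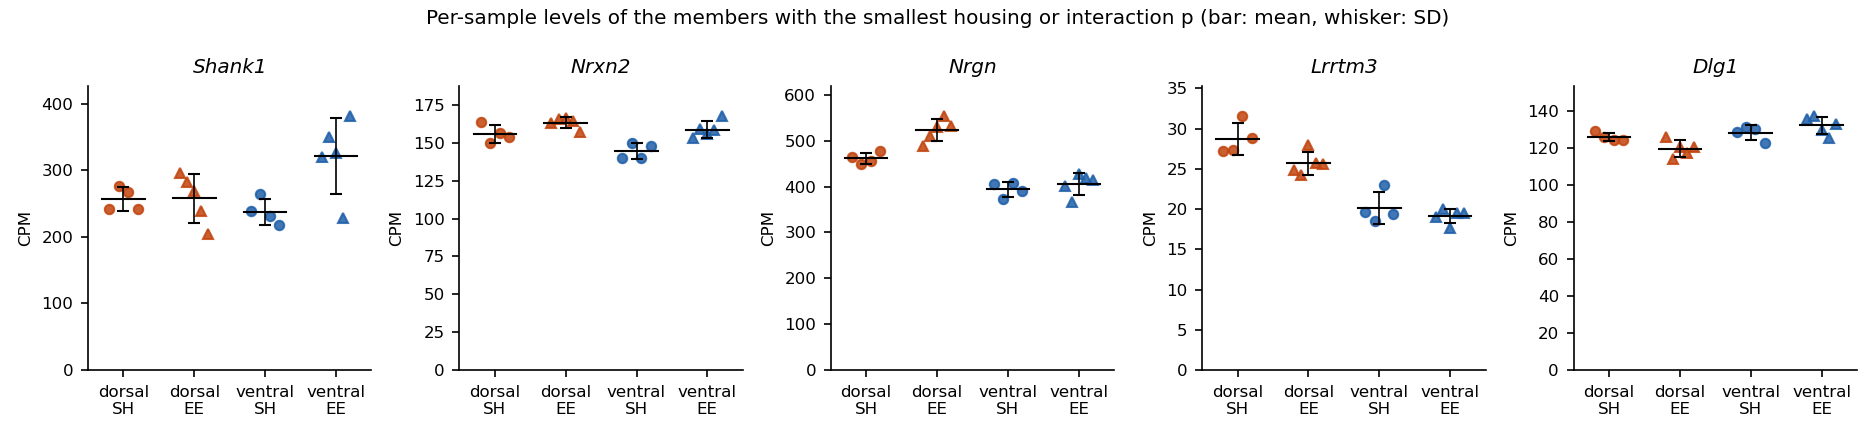
CPM of *Shank1*, *Nrxn2*, *Nrgn*, *Lrrtm3* and *Dlg1* for each sample of the 4 groups (dorsal red, ventral blue, SH circles, EE triangles), with group means and SD (n = 4 for SH, n = 5 for EE). In ventral EE, 4 of 5 *Shank1* samples are above all ventral SH samples, and in dorsal EE all *Nrgn* samples are above those of dorsal SH.

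The interaction of region and housing was tested for each member, and 0 of 45 passed FDR under 0.05 by edgeR, with 1 of 17040 genes past it (0.00587%). DESeq2 and the likelihood ratio test also called 0 members. At an unadjusted p under 0.05 there was 1 member (3.25% of tested genes), and with the pool as a block there were 6 (5.18%), 0 of them past FDR under 0.05. The 1 was *Shank1*, whose EE effect was lower in dorsal than in ventral DG by a log2 difference of -0.43 ± 0.16 (FDR = 0.9999 by edgeR). *Dlg1* was next, at -0.12 ± 0.058 (FDR = 0.9999 by edgeR). It was at 129, 126, 124 and 124 CPM in dorsal SH and 126, 114, 120.3, 117 and 120.2 in dorsal EE. In ventral DG it was at 129, 131, 130.2 and 123 CPM (SH) and 136, 137, 129.7, 125 and 133 (EE), so that the ranges of SH and EE overlapped in both regions.

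Across the 18 samples, the tested genes with a symbol whose log2 CPM followed *Lrrtm4* most closely were *Stxbp6* (Pearson r = 0.993), *Jph1* (0.991) and *Lct* (0.990). Those closest to *Homer3* were *Rab15* (0.979), *Ak4* (0.976) and *Socs2* (0.972). The samples share the division between the regions, and no test was made. With the mean of each group taken out, 95 of the 990 pairs of members had a correlation over 0.7 (median 0.14). The share over 0.7 among pairs of all genes was not computed. The highest were *Dlgap3* with *Shank3* (0.945), *Dlg2* with *Shank2* (0.944), *Shank2* with *Camk2a* (0.935) and *Dlg4* with *Shank3* (0.930). The adhesion genes *Lrrtm2* and *Cadm2* came next (0.927). The lowest was *Shank3* with *Lrrtm1* (-0.923). These describe how members varied together between pools of one group, over 18 samples that share libraries and depth.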

How the data were processed

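Gene expression was measured by paired-end RNA-Seq (stranded total RNA) in 20 samples, and 18 were used. The 40 methylation samples were not analysed here. Per the labels, reads were trimmed with Trim Galore 0.4.0, aligned to mm10 with STAR 2.5.1b and quantified with RSEM 1.2.30. The authors deposited a raw count of fragments per gene, and the reverse-strand column was used here. The expected count (RSEM) was also deposited by the authors and was rounded here for an alternative. TPM and FPKM were deposited by the authors in the same tables, scaled for transcript length. SH replicate 3 was left out because the paper's methods exclude an SH sample for *Xist*, and it was the SH replicate with high *Xist*. Symbols came from Gencode, for 45968 of 46480 genes.

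Genes over 10 counts in 2 or more samples (17040) were tested with edgeR 4.0.16 (TMM, quasi-likelihood, R 4.3.3) in one model of the 4 group means, with Benjamini-Hochberg adjustment over all genes tested. The region test was the mean of the dorsal minus ventral differences of SH and EE. A region call required TPM over 1 in 3 or more samples (12201 genes), FDR under 0.05 and a change of more than 20%. For EE, FDR under 0.05 with at least a 20% change was required. CPM values are after TMM normalization, and log2 CPM used a prior count of 2. The F statistic and the log2 fold change gave the SE. DESeq2 1.42.0 was an alternative, with the likelihood ratio test, RLE size factors, other filters, unstranded or expected counts, all 20 samples, a block and fits leaving out each of 9 pools. The block was the pool in the region and interaction tests and the replicate number in the EE tests. The procedure was also tested on simulated counts, which held no effects of pool or replicate number.

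The members, lists and comparisons were chosen with earlier results of these data known. Values in every sample are given for up to 6 called members with the largest region difference in each direction, and for the 2 members with the smallest p in each EE test and in the interaction. Of other pathway genes, the 4 largest called in each direction were named, and 1 of 89 listed symbols was not matched. The legend of the paper's figure says that lines join the dorsal and ventral samples of the same mice, without replicate numbers. The dorsal and ventral samples of a replicate number were therefore taken to come from the same mice. Their deviations from the group means correlated at a mean r of 0.083 (9 pairs, -0.084 to 0.19, above 0.1 in 4). Those of SH and EE samples with one number correlated at a mean of 0.13 (8 pairs, 0.082 to 0.18, above 0.1 in 7). Pairs with different numbers had means of -0.023 (dorsal with ventral) and -0.031 (SH with EE). Pools were the replicates. Replicate pairs of a group all differed beyond sampling noise (chi-square per degree of freedom of 2.85 to 37.0). The depth gives each member at least 279 counts per sample.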

Additional observations from a re-analysis of the deposited data

Results flagged for a closer look

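The level of *Cadm2* in dorsal EE replicate 2 was 357 CPM, while the other 4 samples of the group were at 493 to 512 CPM, and this sample was far from the others by Dixon's test. It was 1 of 52 groups of samples examined for the 13 genes given in every sample, of which chance flags about 5%. Over all 45 members, 9 of 180 groups had such a sample, with 3 of the 9 in dorsal EE replicate 2 and 3 in ventral SH replicate 2. The region call of *Cadm2* was the same without EE replicate 2.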

How the results depend on the processing

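The 14 members called toward dorsal numbered 14 under every alternative other than the removal of the fold change limit, which gave 24. The 2 called toward ventral were 2 or 3 under the others, 11 with no fold change limit, and 6 in EE alone. No member was called by EE in dorsal DG or by the interaction under any alternative. In ventral DG, 0 members became 1 (*Shank1*) with DESeq2, with the likelihood ratio test and with no filter on low counts, and 0 to 1 when pools were left out in turn, 1 without EE replicate 4. The cause was not tested. The region log2 fold change of *Cntnap2*, near 0, turned sign in SH alone (0.027) and ranged from -0.033 to 0.021 when pools were left out. That of *Shank1* turned in SH alone (0.11). A block of pool (region and interaction) or of replicate number (EE) left the 14 and 2 region calls and the counts of 0 as they were. With these blocks no call of a named gene changed at the 20% limit, although *Camk2n1*, *Camk4* and *Flrt3* passed FDR under 0.05 between the regions. In SH alone *Nrgn* lost its region call and *Camk2a* gained one. *Dlgap3* gained a region call with all 20 samples and in EE alone, and *Shank1*, *Shank2* and *Shank3* gained one in EE alone. With the replicate number block, calls over all genes went from 108 to 172 (EE, dorsal DG) and from 41 to 87 (EE, ventral DG). All-gene EE calls also went to 181 and 87 with the likelihood ratio test, and to 75 in ventral DG with DESeq2 and 78 with no filter, and were 70 to 109 (dorsal) and 18 to 50 (ventral) when pools were left out. Ranked by FPKM, 39 of 45 members kept their TPM rank. With 4 and 5 pools a group, small EE changes may not be detectable, and a count of 0 does not show that housing left the members as they were. The pooled tissue gives no value for single mice.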
